A study of Arabidopsis thaliana with 24 samples.

Results

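The type-A response regulators of Arabidopsis thaliana were followed through 8 genotypes of a chromatin remodelling series. The members were chosen by name as the 10 annotated type-A genes (ARR3, ARR4, ARR5, ARR6, ARR7, ARR8, ARR9, ARR15, ARR16 and ARR17), which are 10 of the 33681 genes in the table. ARR17 was too low to be tested, and the other 9 were among the 21596 genes that reached 10 normalized counts in at least 3 libraries. RNA was sequenced from whole 14-day-old seedlings in the Col-0 background, 3 libraries for each genotype, 24 libraries in all. The genotypes were the triple mutant bcl7a bcl7b brm-1, the triple mutant bcl7a bcl7b brm-3, the single mutants brm-1 and brm-3, the double mutant bcl7a bcl7b, the single mutants bcl7b and bcl7a, and the wild type (WT) without these alleles. All plants were grown alike in short days, and no genotype was treated with cytokinin. BRM is the ATPase of a SWI/SNF chromatin remodelling complex, and BCL7A and BCL7B are accessory subunits of it. The study reports both subunits also in the SWI/SNF complexes built on other ATPases, SYD and MINU. All alleles are T-DNA insertions, brm-1 being a null allele and brm-3 a hypomorphic one. Each allele is a single line carried by the whole plant from germination, so effects on single tissues could not be separated from effects on the whole seedling.

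Cytokinin is read through a phosphorelay. Histidine kinase receptors (AHK) pass a phosphate to phosphotransfer proteins (AHP), which pass it on to response regulators (ARR) in the nucleus. Type-B regulators bind DNA and switch on target genes, among which the type-A genes are the best known early targets. Type-A proteins have the phosphate-receiving domain but no DNA-binding domain, and they dampen the pathway that induces them. In the shoot apex, ARR7 and ARR15 hold back cytokinin signalling in the stem cell niche, where the homeodomain protein WUSCHEL represses several type-A genes. In leaves, the transcription factor TCP4 and BRM are known to act together at ARR16.

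The type-A genes fall into pairs of close homologues spread over the genome. The positions given here are those of assembly TAIR10.1 in the RefSeq annotation. ARR3 (AT1G59940) lies at chr1:22065617-22067233 and its homologue ARR4 (AT1G10470) at chr1:3441988-3444360, both on the minus strand. ARR5 (AT3G48100) lies at chr3:17758427-17760950 and ARR6 (AT5G62920) at chr5:25252007-25254318, both on the minus strand. ARR7 (AT1G19050) lies at chr1:6577833-6579314 and ARR15 (AT1G74890) at chr1:28131447-28133025, both on the minus strand. ARR8 (AT2G41310) lies at chr2:17221840-17224880 and ARR9 (AT3G57040) at chr3:21109059-21111567, both on the plus strand. ARR16 (AT2G40670) lies at chr2:16969673-16972113 and ARR17 (AT3G56380) at chr3:20905264-20906397, both on the plus strand.

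The 250 bases before the annotated start were searched for AGATT, the core letters bound by type-B regulators, on both strands, and the windows of 4 members are shown 5′ to 3′ in the direction of the gene. ARR16, ARR9 and ARR7 are shown because the largest differences below concern them, and ARR5 because it took another course. Capitals mark AGATT, or AATCT where the match is on the other strand. The windows are chr2:16969423-16969672 for ARR16 and chr3:21108809-21109058 for ARR9 (plus strand), and chr1:6579315-6579564 for ARR7 and chr3:17760951-17761200 for ARR5 (minus strand).
ARR16: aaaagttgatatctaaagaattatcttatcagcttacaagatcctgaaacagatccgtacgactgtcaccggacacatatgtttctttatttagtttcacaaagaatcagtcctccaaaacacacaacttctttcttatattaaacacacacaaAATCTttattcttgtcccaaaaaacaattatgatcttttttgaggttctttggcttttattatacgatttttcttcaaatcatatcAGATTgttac
ARR9: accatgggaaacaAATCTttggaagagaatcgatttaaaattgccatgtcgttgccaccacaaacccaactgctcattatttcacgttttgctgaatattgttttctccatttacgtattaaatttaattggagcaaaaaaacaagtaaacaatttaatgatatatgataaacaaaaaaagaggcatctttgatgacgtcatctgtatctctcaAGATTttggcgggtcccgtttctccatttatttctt
ARR7: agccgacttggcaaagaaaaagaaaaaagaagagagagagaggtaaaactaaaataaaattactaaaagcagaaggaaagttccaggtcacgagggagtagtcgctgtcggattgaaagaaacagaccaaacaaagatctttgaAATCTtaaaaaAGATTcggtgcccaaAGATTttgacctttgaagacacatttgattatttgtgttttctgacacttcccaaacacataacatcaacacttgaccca
ARR5: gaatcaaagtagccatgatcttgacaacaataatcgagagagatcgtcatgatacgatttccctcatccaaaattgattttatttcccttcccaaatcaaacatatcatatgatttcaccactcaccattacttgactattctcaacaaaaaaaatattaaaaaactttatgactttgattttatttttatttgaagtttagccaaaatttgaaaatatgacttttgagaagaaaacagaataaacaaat

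AGATT was found 13 times in the windows of 7 of the 10 members, and 63.8% of the 33054 gene windows of the same length hold it. ARR7 and ARR6 had 3 matches each, ARR16 and ARR9 2 each, and ARR3, ARR8 and ARR15 1 each. ARR4, ARR5 and ARR17 had none. The longer letters AGATACG were in 0 of the 10 windows, against 1.73% of all windows. GGACCA and GTGGNCCC, in which TCP factors are known to bind, were also in 0 of the 10, against 5.87% and 0.629% of all windows. The windows with and without these letters are described here only, and no site was measured.

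The 24 libraries fell into 2 sets. The 9 libraries of bcl7b, bcl7a and WT summed to 29.9 to 40.9 M normalized counts with 26.8% to 33.6% in the 10 highest genes, and the other 15 libraries to 16.6 to 22.1 M with 7.87% to 13.7%. Differences of the brm, double and triple mutants from WT therefore cannot be told apart from the difference between the sets, whereas the triple mutants against their brm parents, brm-1 against brm-3, and bcl7b and bcl7a against WT were compared within a set. Scaling every library to the same total moved the median difference from WT over all genes in the mutants of the other set. It rose from between 0.19 and 0.36 to between 1.10 and 1.25 on the log2 scale. Within the first set it moved less, from 0.02 to 0.27 in bcl7b and from 0.03 to 0.08 in bcl7a. The bcl7b libraries summed to 29.9 to 32.2 M, below the 35.3 to 40.9 M of WT, so bcl7b against WT is not free of scaling. Calls were made on changes from 0 and not relative to that median, so the median or the shares of all genes called stand beside them. Replicates 1 and 3 of bcl7a bcl7b differed from each other by less than sampling noise would give, and they entered as 1 sample, their mean, which leaves n = 2 for that genotype. BCL7B was at 0 in every library carrying bcl7b except 1 of bcl7a bcl7b brm-3 (23.97), against 382 to 479 normalized counts in WT. BRM stood at 17.9 to 44.8 in libraries carrying brm-1, against 111 to 350 in WT. BCL7A was low throughout, at 0 to 12.4 in carriers of bcl7a, against 0 to 30.1 in WT. Of these 3 genes, 0 were called lower and 1 higher in brm-3 against WT, so BRM RNA was not called lower with that allele alone.

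ARR16 differed widely between genotypes. It measured 20.02, 29.6 and 6.15 normalized counts in bcl7a bcl7b brm-1, against 400.1, 468 and 931 in brm-1. In bcl7a bcl7b brm-3 it measured 255, 125 and 245, against 257, 126 and 355 in brm-3. The first pair did not overlap, and the second pair spanned nearly the same range. The double mutant bcl7a bcl7b gave 231, 368 and 239, and the singles gave 51.7, 7.54 and 11.85 in bcl7b and 40.4, 7.01 and 100.9 in bcl7a, against 92.5, 61.4 and 25.5 in WT. Ordered by their means, brm-1 stood above bcl7a bcl7b with no overlap, and bcl7a bcl7b brm-3 above WT with no overlap, while the other neighbours in the order overlapped.

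ARR9 and ARR8, which are each other's closest homologues, ran in parallel. ARR9 measured 1041, 810.4 and 944 in bcl7a bcl7b brm-1, against 2369, 2604 and 1912 in brm-1. It measured 2476, 3903 and 3091 in bcl7a bcl7b brm-3, against 1430, 2176 and 1273 in brm-3. ARR9 was thus highest in one triple mutant, and the other triple mutant stood next above WT. It measured 1377, 1002 and 1375 in bcl7a bcl7b, 794, 385 and 513 in bcl7b and 464, 661 and 405 in bcl7a, against 653, 694.5 and 350.0 in WT. ARR8 measured 269, 369 and 251 in bcl7a bcl7b brm-1, against 955, 1015 and 697 in brm-1. It measured 844, 1115 and 1027 in bcl7a bcl7b brm-3, against 493.5, 805 and 465.5 in brm-3, and neither pair overlapped. ARR8 stood at 439, 357 and 426 in bcl7a bcl7b, 237, 145 and 223.5 in bcl7b and 269, 322 and 222.5 in bcl7a, against 334, 325 and 224 in WT.

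ARR8 and ARR9 may not be fully separate measurements. Of the 31-base stretches of the ARR8 transcripts, 20.6% also occur on either strand of other annotated transcripts, ARR9 among them, and the share was 9.72% for ARR9. The part that ARR8 and ARR9 share with each other was not counted. AT2G09250 and AT3G08825, which overlap ARR8 and ARR9 on the opposite strand, are not among the deposited genes. Whether reads were counted by strand is not given in the sources used here, so reads of overlapping antisense transcripts cannot be told apart from reads of these genes. ARR6 shares 22.3% with AT5G62910 on the opposite strand, which averaged 153 ± 17.7 normalized counts in bcl7a bcl7b brm-1 and 176 ± 28.7 in brm-1 (SD, n = 3 each). ARR3 and ARR4 share 16 such stretches, and the other 5 members share none.

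ARR7, which acts in the shoot apex, was raised in most mutants. It measured 185, 175 and 281 in bcl7a bcl7b brm-1, against 876, 1005 and 819.9 in brm-1. It measured 1175, 1026 and 1099 in bcl7a bcl7b brm-3, against 467, 928 and 395 in brm-3. The groups of the first pair lay far apart, and in the second pair the triple mutant was the higher one in every library. ARR7 measured 1213, 371 and 1227 in bcl7a bcl7b, 1086, 635 and 743 in bcl7b and 293, 700.3 and 393 in bcl7a, against 46.65, 265 and 78.55 in WT. Every library of the other 6 mutants, and 1 of the 3 of bcl7a bcl7b brm-1, lay above the highest WT library, and that WT library (replicate 2) was over 3 times the other 2.

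**Figure D1:**
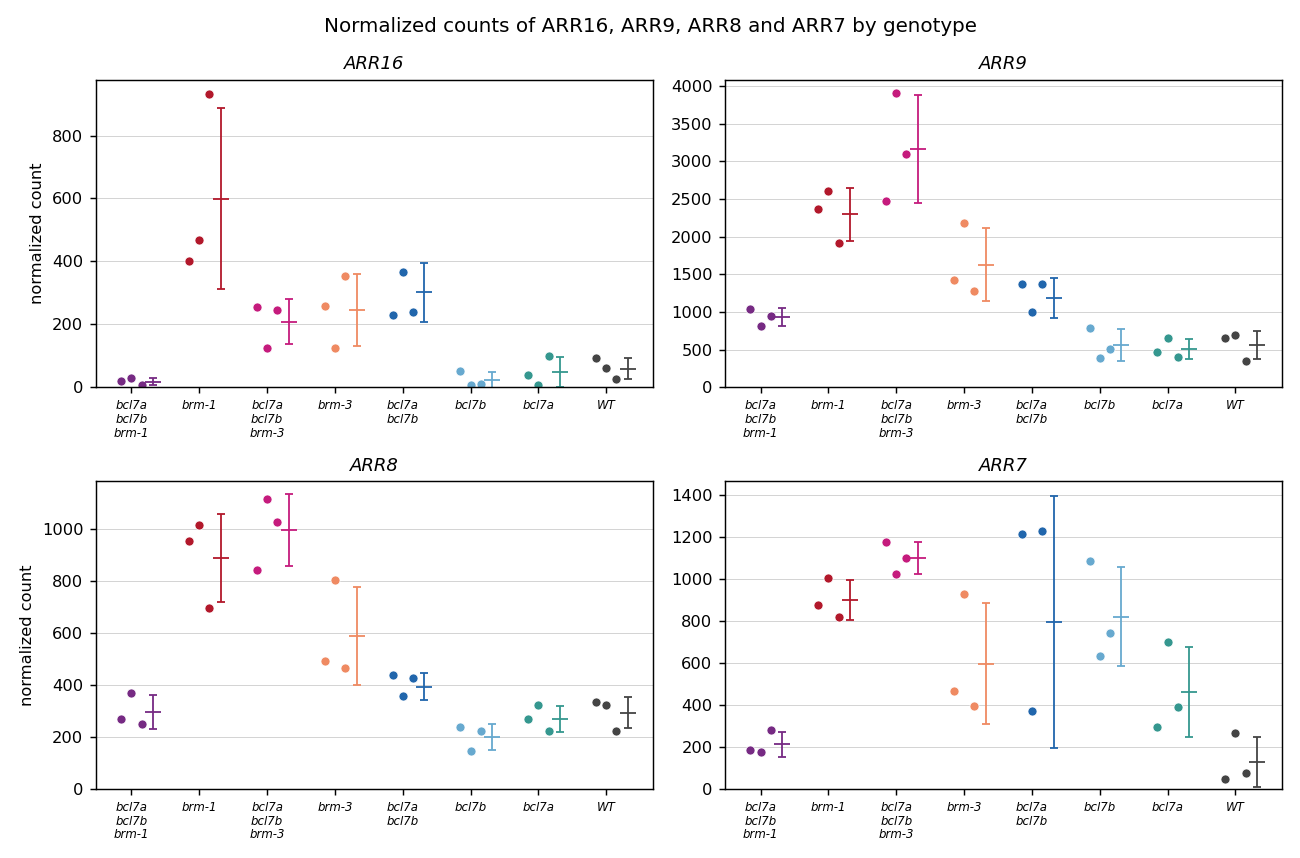
Normalized counts (vertical axes, each from 0) of ARR16, ARR9, ARR8 and ARR7 in the 8 genotypes (horizontal axis), with a point for each library and a bar for the mean ± SD over samples (n = 3, or 2 for bcl7a bcl7b). In each panel bcl7a bcl7b brm-1 sits below brm-1, with ARR16 at 6.15 to 29.6 against 400.1 to 931.

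ARR5 and ARR6, a homologous pair, were not raised in brm-1. ARR5 measured 195, 219.7 and 163 in bcl7a bcl7b brm-1, against 444, 452 and 447 in brm-1, and the 3 brm-1 libraries were close together. ARR6 measured 119, 222 and 215 in bcl7a bcl7b brm-1, against 319.9, 314 and 429 in brm-1. Both genes were lower in every library of this triple mutant than in every other library. WT libraries held 557, 989 and 660.4 of ARR5 and 555, 487 and 409 of ARR6. Over the remaining genotypes ARR5 ranged between 443 and 1520 and ARR6 between 321.5 and 1243, and for both genes the highest library was replicate 1 of bcl7b.

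ARR4, which is known to interact with the photoreceptor phytochrome B, was well above the filter in every library. It ranged over 3765 to 6984 in bcl7a bcl7b brm-1, 5437 to 5860 in brm-1, 5141 to 6592 in bcl7a bcl7b brm-3 and 4269 to 6688 in brm-3. It ranged over 3403 to 6897 in bcl7a bcl7b, 3392 to 3788 in bcl7b and 2970 to 4558 in bcl7a, against 2644 to 3837 in WT. ARR3, its homologue, was near the detection limit in single libraries, with 6.35 to 20.7 in bcl7a bcl7b brm-1, against 42.1 to 67.5 in brm-1. The WT libraries of ARR3 spread from 1.66 to 74.75, and its genotype groups mostly overlapped.

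ARR15, the homologue of ARR7, was listed at 0 in the 3 WT libraries and above 0 in each of the 21 mutant libraries. The lowest mutant library had 5.78 (bcl7a bcl7b brm-1) and the highest 74.0 (bcl7b), and the mutant genotypes overlapped each other. With WT at 0 no fold is given. ARR17, the homologue of ARR16, was listed at 0 in 18 of the 24 libraries and reached 7.43 at most, in brm-3.

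**Figure D2:**
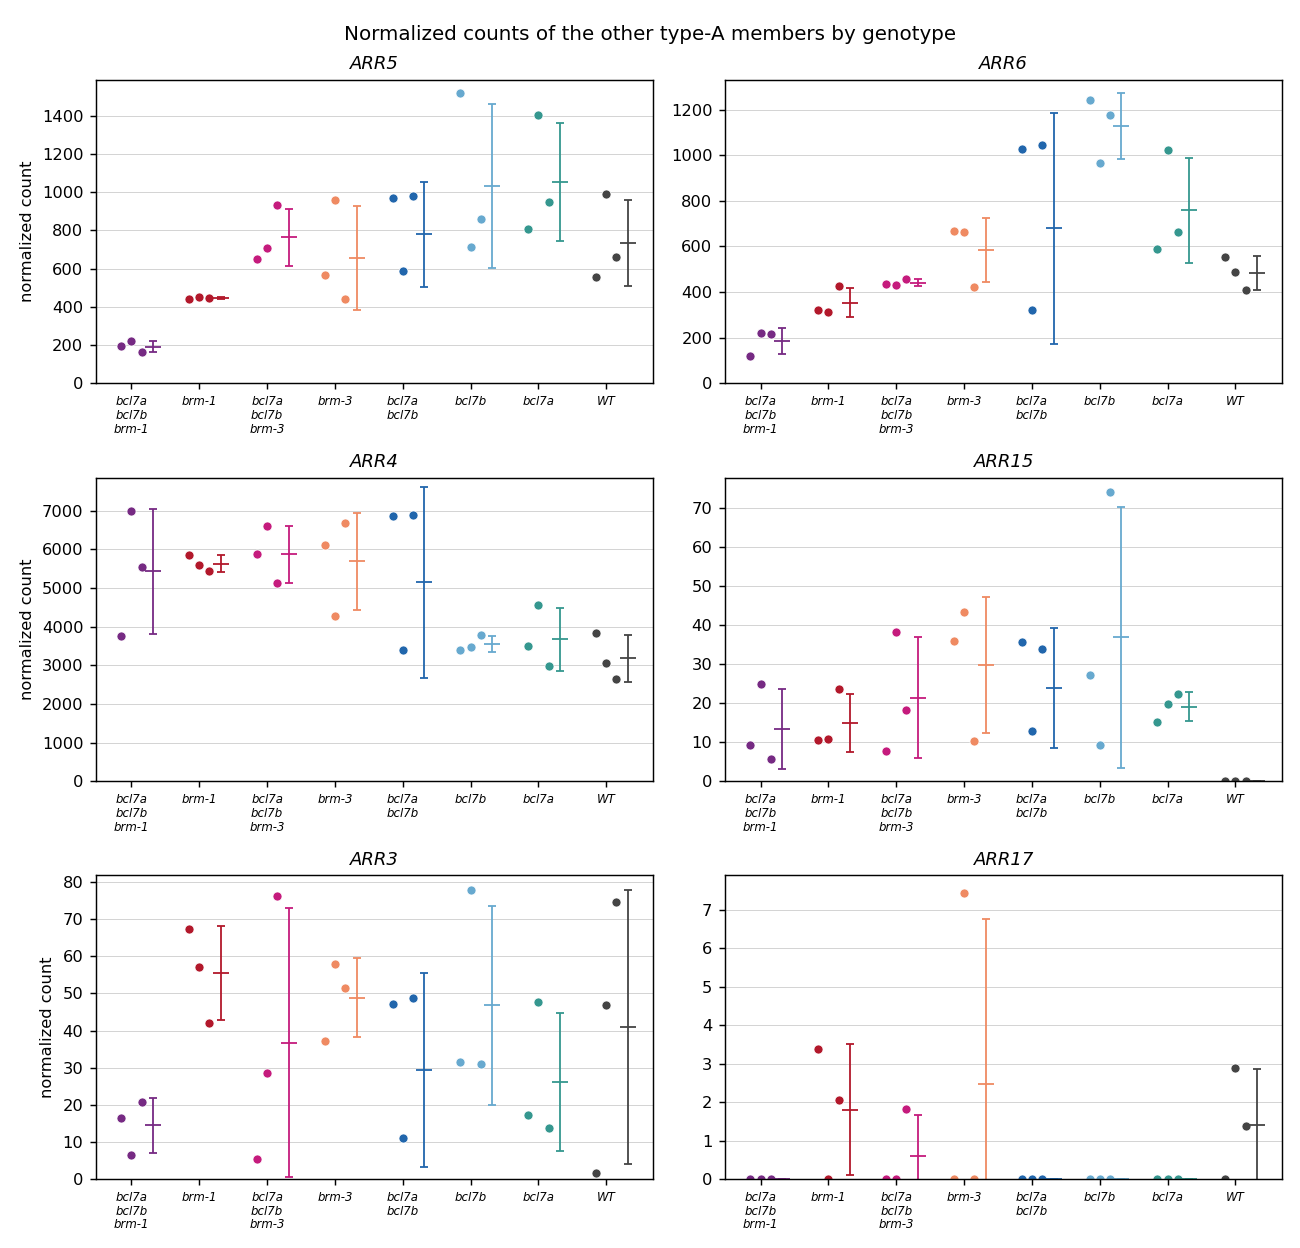
Normalized counts (vertical axes, each from 0) of ARR5, ARR6, ARR4, ARR15, ARR3 and ARR17 in the 8 genotypes, with a point for each library and a bar for the mean ± SD over samples (n = 3, or 2 for bcl7a bcl7b), cut at 0. ARR5 and ARR6 are lowest in bcl7a bcl7b brm-1, and ARR15 is at 0 in the 3 WT libraries.

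The comparison of bcl7a bcl7b brm-1 with brm-1 asks what loss of both BCL7 subunits does where BRM is already lost. Of the 9 members tested, 6 fell and 0 rose, where 15.3% of all genes tested fell and 14.2% rose. A gene was called at an adjusted p below 0.05 (limma, Benjamini-Hochberg over all genes tested) and a log2 fold change beyond 0.6 in either direction. ARR16 fell by 5.07 ± 0.77 on the log2 scale (SE), a 33.7-fold lower level and the largest change of the 9 (limma adjusted p = 2.71e-05). ARR7 fell by 2.10 ± 0.48, ARR8 by 1.58 ± 0.25, ARR9 by 1.30 ± 0.28 and ARR5 by 1.22 ± 0.30 (limma adjusted p = 0.00161, 4.03e-05, 0.00106 and 0.00298, in that order). These 5 were called whichever of the 24 libraries was left out. ARR6 fell by 0.97 ± 0.32 (limma adjusted p = 0.023), and its call was lost without brm-1 replicate 3 (log2 fold change -0.83, limma adjusted p = 0.093) or without bcl7a bcl7b brm-1 replicate 1 (-0.68, limma adjusted p = 0.146).

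The 3 members not called were ARR3, ARR15 and ARR4. ARR3 gave a log2 fold change of -1.98 (95% interval -4.02 to 0.06, limma adjusted p = 0.136), and it passed without WT replicate 1 (limma adjusted p = 0.0404). ARR3 also passed under quantile normalization (-2.27, limma adjusted p = 0.0368) and with only the genotypes compared (limma adjusted p = 0.012). ARR15 gave -0.30 (-1.95 to 1.36) and ARR4 -0.10 (-0.60 to 0.41). The median of the 9 members was -1.30, beside -0.01 over all genes tested. For 7 members every library of bcl7a bcl7b brm-1 lay below every library of brm-1, and for 0 members above, where 27% of all genes tested lay wholly below and 27.7% wholly above. Of 15 root genes 1 was lower and 0 were higher, and of 6 green leaf genes 1 was lower and 0 were higher, where 15.3% of all genes were lower and 14.2% higher. In 3 root genes every library of the triple mutant lay below every brm-1 library, and in 0 above. In green leaf genes 1 lay wholly below and 1 wholly above. The part of these genes in the type-A result was not tested. In whole seedlings, fewer cells of a type and less RNA for each cell cannot be told apart.

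The same step was made with the weaker allele, and the difference between the alleles in this step was not tested. In bcl7a bcl7b brm-3 against brm-3, 2 of the 9 members rose and 0 fell, where 9.08% of all genes tested rose and 12.1% fell. ARR9 rose by 0.97 ± 0.28 and ARR8 by 0.80 ± 0.25 on the log2 scale (limma adjusted p = 0.0148 and 0.0246). Both calls rest on single libraries, since ARR8 was at an adjusted p of 0.124 in limma without brm-3 replicate 3 and 0.0981 without brm-3 replicate 1, and ARR9 at 0.0829 and 0.0559. ARR8 also lost its call without bcl7a bcl7b brm-3 replicate 2 (limma adjusted p = 0.0847) or replicate 3 (0.0689), and ARR9 without replicate 2 (0.0738). ARR7 gave 0.98 (95% interval -0.00 to 1.97, limma adjusted p = 0.148) and ARR16 -0.19 (-1.79 to 1.42). The median of the 9 was 0.06, beside -0.01 over all genes. Green leaf genes moved here, with 3 of 6 lower and 0 higher, summing to 136300 to 166700 normalized counts in bcl7a bcl7b brm-3, against 167400 to 300100 in brm-3, and their part in the result was not tested.

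**Figure D3:**
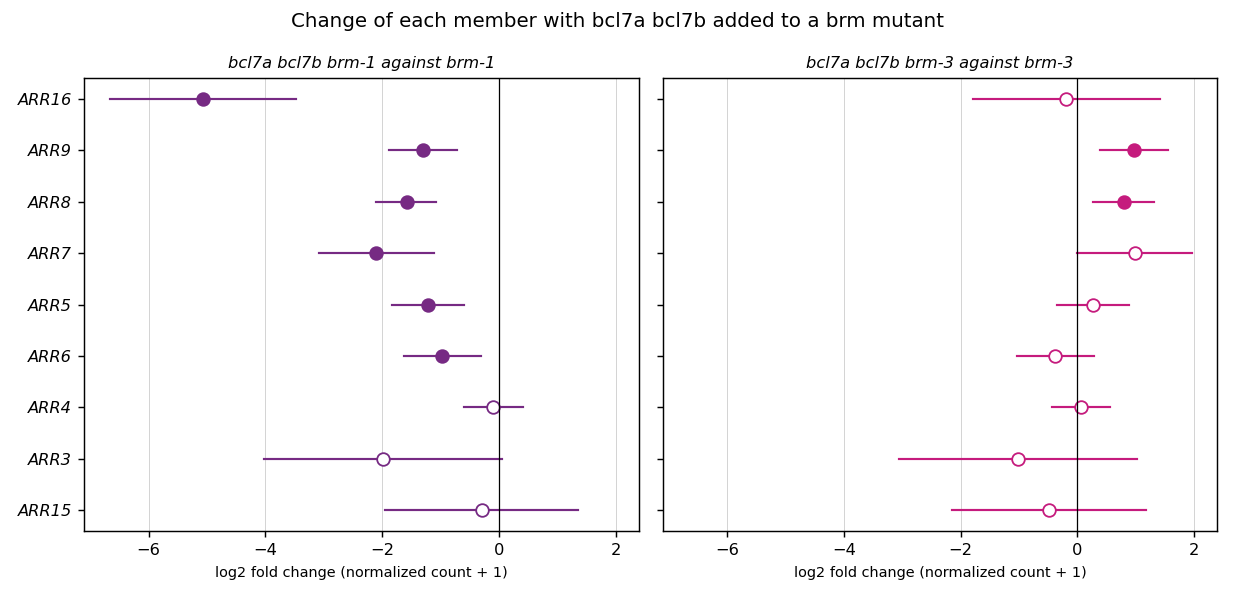
Log2 fold changes with 95% intervals (horizontal axis) of the 9 tested members (vertical axis) for bcl7a bcl7b brm-1 against brm-1 and bcl7a bcl7b brm-3 against brm-3, filled where called. ARR16 lies at -5.07 in the first comparison and at -0.19 in the second.

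Set against brm-3, the null allele brm-1 gave no call among the 9 members, and 5.34% of all genes tested were higher and 4.6% lower. At an unadjusted limma p below 0.05, 2 of the 9 differed, a share like the 22.3% of all genes tested that did. They were ARR8 at 0.62 (95% interval 0.11 to 1.14, limma adjusted p = 0.127) and ARR6 at -0.71 (-1.37 to -0.05, limma adjusted p = 0.186). ARR8 was called without brm-3 replicate 2 (0.87, limma adjusted p = 0.0421). ARR16 gave 1.30 (-0.30 to 2.90), an interval that holds no difference and a several-fold one alike.

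Single loss of BRM was compared with WT across the library sets. In brm-1, 6 of the 9 members rose and 0 fell, where 28.9% of all genes rose and 19.2% fell. The 6 were ARR16, ARR7, ARR9, ARR8, ARR4 and ARR15. ARR16 rose by 3.38 ± 0.77, ARR7 by 3.16 ± 0.48, ARR9 by 2.07 ± 0.28, ARR8 by 1.60 ± 0.25 and ARR4 by 0.84 ± 0.24 on the log2 scale (limma adjusted p = 0.000955, 9.6e-06, 2.45e-06, 1.6e-05 and 0.0064). ARR5 gave -0.67 (limma adjusted p = 0.0653) and was called lower without WT replicate 1 (-0.85, limma adjusted p = 0.0358). ARR6 gave -0.45 (limma adjusted p = 0.247), and under the same-total scaling ARR5 and ARR6 turned to 0.17 and 0.39. ARR15 was not called under quantile normalization (limma adjusted p = 0.0902). The median of the 8 members with a fold was 1.49, beside 0.36 over all genes, and it exceeded the median of all genes by 1.14 as deposited and at the same total, and by 1.32 under quantile normalization. Less the median of all genes, the rise of ARR4 was 0.48 as deposited, 0.54 at the same total and 1.05 under quantile normalization. It was 0.56 in brm-3 and 0.59 in bcl7a bcl7b brm-3 as deposited, and the cut-off for calls was 0.6. For 6 members all brm-1 libraries lay above all WT libraries, and for 1 member, ARR5, below, where 32.6% of all genes tested lay wholly above and 23.4% wholly below.

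In brm-3 6 members rose, the ones named for brm-1, and 0 fell, where 23.5% of all genes rose and 16.5% fell. ARR7 rose by 2.47, ARR16 by 2.08, ARR9 by 1.54, ARR8 by 0.97 and ARR4 by 0.83 (limma adjusted p = 0.000246, 0.035, 0.000131, 0.00335 and 0.00872). The call on ARR16 was lost without WT replicate 3 (1.57, limma adjusted p = 0.147), brm-3 replicate 1 (1.99, 0.0905) or brm-3 replicate 3 (1.75, 0.125), and under quantile normalization (0.0621). In bcl7a bcl7b brm-3, again 6 rose and 0 fell, where 30.8% rose and 22.8% fell of all genes. ARR7 rose by 3.45, ARR9 by 2.52, ARR16 by 1.89, ARR8 by 1.77 and ARR4 by 0.89 (limma adjusted p = 2.24e-06, 1.09e-07, 0.042, 3.24e-06 and 0.0035). The ARR16 call was again lost without WT replicate 3 (1.38, limma adjusted p = 0.175), without WT replicate 2 (0.0584), without bcl7a bcl7b brm-3 replicate 1 (0.114) or replicate 3 (0.108), under quantile normalization (0.0825), at a pseudocount of 0.1 (0.0582) and with no filter (0.0577). All comparisons with WT share its 3 libraries, and WT replicate 1 stood apart from replicates 2 and 3. It had 16191 genes at 0, against 13250 and 13368 in replicates 2 and 3. The SD of the log2 ratios was 1.46 and 1.51 between replicate 1 and replicates 2 and 3, and 0.887 between replicates 2 and 3.

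Some tissue and clock genes were called in the comparisons of brm, double and triple mutants with WT. Of all genes tested, 28.9% were higher and 19.2% lower in brm-1, 23.5% and 16.5% in brm-3, and 30.8% and 22.8% in bcl7a bcl7b brm-3. The shares were 26.9% and 18.3% in bcl7a bcl7b brm-1, and 11.9% and 10.2% in bcl7a bcl7b. Several of the counts below are near or under these shares, such as 1 of 15 root genes lower in bcl7a bcl7b. The 15 root genes summed to 1069 to 1288 in brm-1, against 2993 to 3856 in WT, with 5 lower and 2 higher. CASP1, a protein of the root barrier, had 64.1 to 114 in brm-1 and 509 to 767 in WT, whereas WOX5, of the root stem cell niche, had 31.9 to 42.6 in brm-1 and 0 to 8.84 in WT. The 6 green leaf genes summed to 203500 to 287900 in brm-1, against 560200 to 697800 in WT, with 4 lower and 1 higher. Of the 4 clock genes 1 was higher and 2 were lower in brm-1. TOC1 was higher, with 484.5 to 558 in brm-1 and 128 to 232.5 in WT, LHY was not called, GI had 8.61 to 40.6 in brm-1 and 774 to 913 in WT, and CCA1 was at 0 in 2 of the 3 brm-1 libraries, against 86.5 to 131 in WT. In brm-3, 6 of the 15 root genes were lower and 1 higher, 5 of the 6 green leaf genes lower and 0 higher, and 3 of the 4 clock genes lower and 1 higher than in WT. In bcl7a bcl7b brm-3, 8 root genes were lower and 2 higher, 5 green leaf genes lower and 1 higher, and 2 clock genes lower and 1 higher. In bcl7a bcl7b brm-1, 6 root genes were lower and 1 higher, 4 green leaf genes lower and 1 higher, and 3 clock genes lower and 1 higher. The double mutant bcl7a bcl7b had the fewest calls of these 5 mutants, with 1 root gene lower and 0 higher, 2 green leaf genes lower and 1 higher, and 1 clock gene lower and 1 higher. Few calls did not mean levels like WT in this group of n = 2. Its root genes summed to 1666 to 1958 and its green leaf genes to 268400 to 407700, both wholly below the WT sums. The hour of harvest is not given in the sources used here. The part of these differences in the type-A results was not tested.

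In bcl7a bcl7b brm-1 the members split when set against WT. Of the 9, 3 rose and 2 fell, where 26.9% of all genes rose and 18.3% fell. ARR5 fell by 1.90 and ARR6 by 1.42 (limma adjusted p = 1.8e-05 and 0.000841), ARR9 rose by 0.77 and ARR4 by 0.74 (0.027 and 0.0151), and ARR15 was called higher than in WT at 0 (0.000773), though not under quantile normalization (0.128). With quantile normalization 2 rose and 4 fell, where 21.1% of all genes rose and 21.6% fell. At the same total 5 rose and 1 fell, where 54.1% rose and 6.94% fell, as ARR6 then gave -0.50 (limma adjusted p = 0.166). ARR8 gave 0.01, ARR7 1.06 (limma adjusted p = 0.0703) and ARR16 -1.69 (0.0769), and each of the last pair was called in some settings, ARR7 without WT replicate 2 (1.77, 0.00168) and ARR16 without WT replicate 3 (-2.20, 0.0381). The calls on ARR4 and ARR9 were lost without WT replicate 3 (limma adjusted p = 0.0668 and 0.189), ARR4 also without bcl7a bcl7b brm-1 replicate 2 (0.101), and ARR9 without replicate 1 (0.0895) or 3 (0.0644) of that genotype. ARR3 was called lower without WT replicate 1 (-2.1, limma adjusted p = 0.0431). The median of 8 members was -0.29, beside 0.29 over all genes.

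The double mutant bcl7a bcl7b, which retains BRM, had 4 of the 9 members higher than WT and 0 lower, where 11.9% of all genes rose and 10.2% fell. ARR7 rose by 2.75 ± 0.53, ARR16 by 2.46 ± 0.86 and ARR9 by 1.12 (limma adjusted p = 0.000756, 0.0437 and 0.0133), and ARR15 was the fourth. At the same total 8 rose and 0 fell, where 50.3% of all genes rose and 1.68% fell. ARR16 was not called without bcl7a bcl7b replicate 2 (2.14, limma adjusted p = 0.214), WT replicate 3 (1.95, 0.133) or WT replicate 2 (0.0551), nor under quantile normalization (0.0739), at a pseudocount of 0.1 (0.0625) or with no filter (0.0603). The call on ARR16 held in 15 of the 24 fits that leave out a library, and the other 6 that lost it left out brm-3 replicate 1, brm-1 replicate 1 or 2, bcl7a bcl7b brm-3 replicate 1 or 3, or bcl7a bcl7b brm-1 replicate 1 (limma adjusted p = 0.0503 to 0.0528). ARR9 was not called without WT replicate 3 (0.80, limma adjusted p = 0.0645). ARR4 and ARR6, not called here (ARR4 limma adjusted p = 0.103), were called higher without bcl7a bcl7b replicate 2 (1.13 and 1.11, limma adjusted p = 0.0126 and 0.0345). Only that library holds the spread of the group beside the near-identical pair. ARR8 gave 0.44 (limma adjusted p = 0.273).

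The single mutants were compared with WT within their own set of libraries. In bcl7b, 3 of the 9 members rose and 0 fell, where 1.5% of all genes rose and 0.574% fell. ARR7 rose by 3.0 (limma adjusted p = 0.00139), ARR6 by 1.22 (0.0451), and ARR15 was called above WT at 0 (0.00216). The call on ARR6 was lost in 16 of the 24 fits that leave out a library, the highest adjusted p in limma being 0.15, without bcl7b replicate 3. In bcl7a only ARR15 was called, higher (limma adjusted p = 0.0165), where 0.301% of all genes rose and 0.0509% fell, and its call was lost without bcl7a replicate 1 (0.0502) or 3 (0.0671). It was also lost at a pseudocount of 5, under quantile normalization and with only the genotypes compared (limma adjusted p = 0.129, 0.227 and 0.0946). ARR7 gave 2.11 in bcl7a (limma adjusted p = 0.0519) and passed without WT replicate 2 (2.81, limma adjusted p = 0.001). At a pseudocount of 5 ARR7 was called in place of ARR15 (limma adjusted p = 0.0463). In both mutants 3 members had all libraries above all WT libraries and 0 below, where 8.14% of all genes tested lay wholly above and 8% wholly below in bcl7b, and 5.33% and 4.33% in bcl7a. None of the root, green leaf or clock genes was called in either mutant, but some lay apart from WT. The 6 green leaf genes summed to 391900 to 471100 in bcl7b, against 560200 to 697800 in WT, and 4 of them had every bcl7b library below every WT library. The 15 root genes summed to 2464 to 2909 in bcl7b, against 2993 to 3856 in WT, with 3 of them wholly below. In bcl7a 2 green leaf genes and 0 root genes lay wholly below WT. Their part in the type-A results was not tested.

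**Figure D4:**
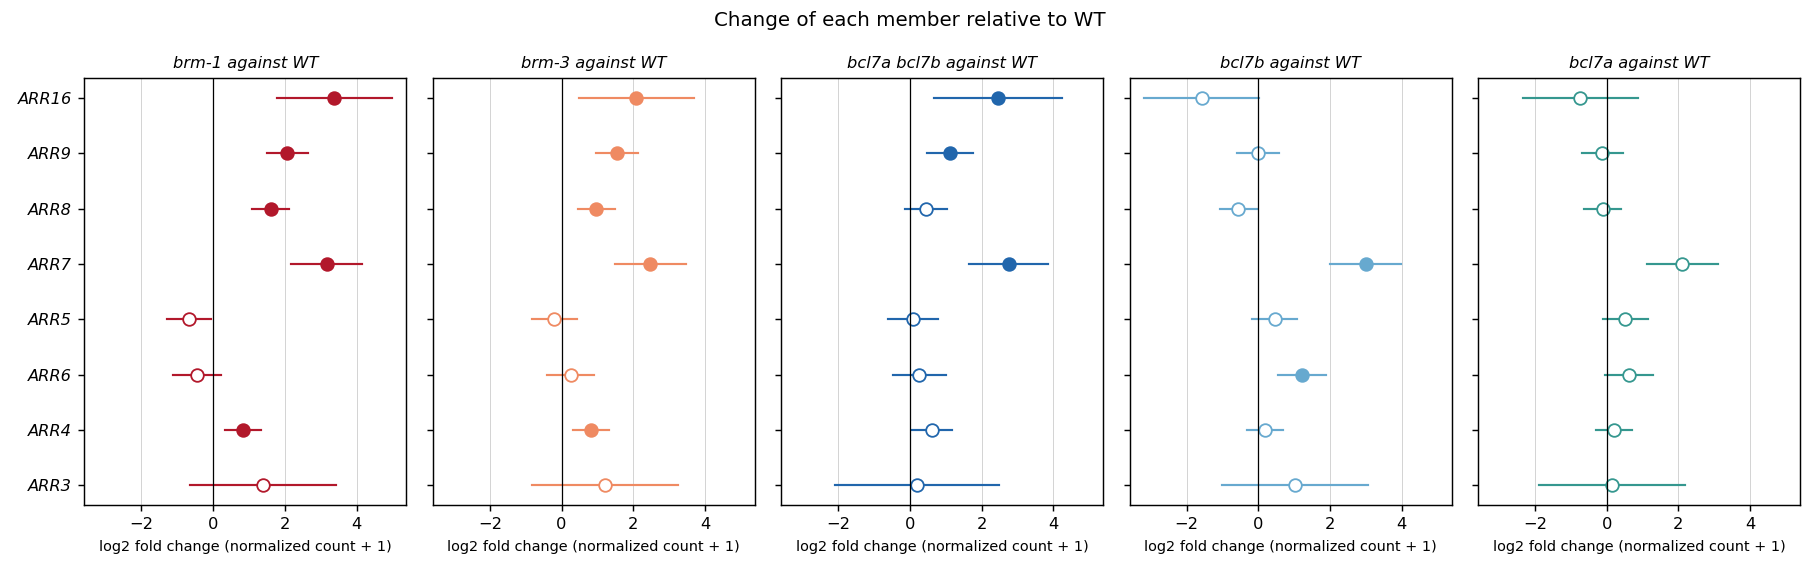
Log2 fold changes against WT with 95% intervals (horizontal axis) of 8 members (vertical axis) in brm-1, brm-3, bcl7a bcl7b, bcl7b and bcl7a, filled where called; ARR15, at 0 in WT, is left out. ARR7 lies between 2.11 and 3.16 in the 5 mutants, and ARR16 lies at 3.38 in brm-1 and -1.58 in bcl7b.

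Whether bcl7a bcl7b had the same effect with and without BRM was tested as an interaction, the change of bcl7a bcl7b brm-1 from brm-1 minus the change of bcl7a bcl7b from WT. It was negative and called for 6 of the 9 members and positive for 0, where 16.5% of all genes were called negative and 14.7% positive. The median of the 8 members with a fold was -2.1, beside -0.25 over all genes. At the same total these medians were -2.92 and -1.07. ARR16 gave -7.53 ± 1.16, ARR7 -4.85 ± 0.71, ARR9 -2.41 ± 0.42, ARR8 -2.02 ± 0.38 and ARR5 -1.30 ± 0.45 on the log2 scale (limma adjusted p = 3.84e-05, 2.29e-05, 0.000144, 0.000273 and 0.0295). ARR15 was the sixth (0.00404), its size depends on WT at 0, and it was not called under quantile normalization (0.0804). For ARR16, ARR7 and ARR9 the change was upward where BRM was present and downward where it was lost. The call on ARR5 was lost without WT replicate 1 (limma adjusted p = 0.0661), WT replicate 3 (0.0509), brm-1 replicate 2 (0.0526) or bcl7a bcl7b brm-1 replicate 3 (0.0694). ARR6 gave -1.24 (0.0522) and was called without bcl7a bcl7b replicate 2 (-2.08, 0.00111), as was ARR4 (-1.23, 0.0176). The change of bcl7a bcl7b from WT runs across the library sets and that of the triple mutant does not, and an effect of the sets cannot be told apart from the interaction in this term.

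The double mutant was also set against the sum of its single mutants. Of the 9 members, 1 lay above the sum and 1 below it, where 3.03% and 2.98% of all genes did. ARR16 lay 4.77 ± 1.16 above (limma adjusted p = 0.0167), since it was at 231 to 368 in bcl7a bcl7b while bcl7b and bcl7a stood at 7.54 to 100.9, against 25.5 to 92.5 in WT. Its call was lost without bcl7a bcl7b replicate 2 (4.45, limma adjusted p = 0.0847). ARR15 was below (limma adjusted p = 0.0237), its value again depends on WT at 0, and its call was lost without bcl7a replicate 3, bcl7b replicate 3 or bcl7a bcl7b replicate 2. The ARR15 call was also lost at a pseudocount of 5, under quantile normalization and at the same total (limma adjusted p = 0.0897, 0.0932 and 0.0627). ARR7 gave -2.36 (limma adjusted p = 0.0508).

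The rest of the cytokinin pathway was counted from lists of named genes. Among the AHK receptors, AHK2 and AHK4 rose and AHK3 fell in brm-1 against WT, which are 2 higher and 1 lower of 3. Of all genes tested, 28.9% were called higher and 19.2% lower in that comparison, and 14.2% and 15.3% in bcl7a bcl7b brm-1 against brm-1, and the counts of each list stand beside these shares. AHK4 overlapped WT (log2 fold change 1.5, limma adjusted p = 0.0474). Among the AHP genes 4 of 6 rose and 0 fell, with a median of 1.40 beside 0.36 over all genes. AHP2, which carries the phosphate on to the regulators, had 1801, 2118 and 1225 normalized counts in brm-1, against 314, 486 and 253 in WT, and rose by 2.30 ± 0.30 (limma adjusted p = 1.72e-06). In bcl7a bcl7b brm-1 it had 432, 353 and 357, near the WT range, and fell by 2.14 ± 0.30 from brm-1 (limma adjusted p = 1.21e-05). AHP1 and AHP3 fell there as well, by 2.39 and 2.02, so that 3 of 6 AHP genes were lower and 0 higher in bcl7a bcl7b brm-1 than in brm-1 (median -1.52, beside -0.01 over all genes). AHP4 took another course, with 932, 849 and 355.5 in brm-1, against 43.7, 48.6 and 0 in WT. In bcl7a bcl7b brm-1 it had 372, 308 and 290, which overlapped brm-1 and stayed above WT. No receptor was called in bcl7a bcl7b brm-1 against brm-1.

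In the smaller lists a few calls are near what those shares give. Of 6 type-B regulators tested, 1 rose and 2 fell in brm-1 against WT (28.9% and 19.2% of all genes). ARR14 rose, at 682, 764 and 468 in brm-1, against 40.1, 219 and 138 in WT, while ARR1 and ARR11 fell by 1.07 and 2.57. In bcl7a bcl7b brm-1, ARR14 had 152, 179 and 115.5, and it fell by 2.08 from brm-1 while ARR10 rose by 1.22. Of 14 genes of cytokinin synthesis 7 rose and 0 fell in brm-1, and 1 rose and 2 fell in bcl7a bcl7b brm-1 against brm-1 (medians 0.90 and -0.63). LOG1, which releases active cytokinin from its precursor, fell by 3.28 in the triple mutant, to 115, 96.65 and 40.65, against 816, 942 and 559 in brm-1. IPT3, an enzyme of the first step of synthesis, rose by 2.39 there. Of 5 breakdown genes 1 was higher in each comparison (CKX4 in brm-1 against WT, CKX7 in bcl7a bcl7b brm-1 against brm-1) and 0 lower. Of 6 cytokinin response factors 2 rose and 3 fell in brm-1, and 1 rose in bcl7a bcl7b brm-1 against brm-1. Of 3 glucosylation genes 1 rose in brm-1 and none was called in the other comparison, and the 2 type-C regulators were too low to be tested. At the same total, the lower calls on AHK3, ARR1, CRF2, CRF5 and CRF6 in brm-1 were lost, and that on ARR11 was kept (-1.74, limma adjusted p = 0.0126).

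**Figure D5:**
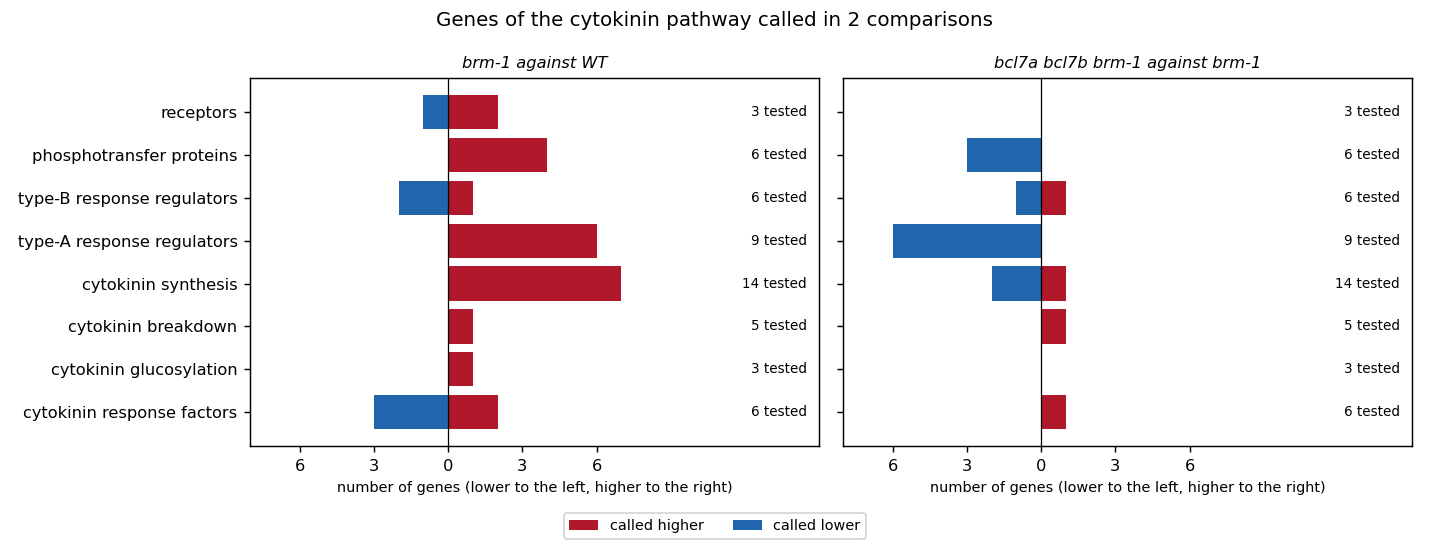
Number of genes called higher or lower (horizontal axis) in each list of the cytokinin pathway (vertical axis) for brm-1 against WT and bcl7a bcl7b brm-1 against brm-1. Type-A genes show 6 higher and 0 lower in the first comparison, and 0 higher and 6 lower in the second.

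TCP4, which acts with BRM at ARR16 in leaves, was measured beside it. TCP4 had 373, 319 and 469.9 in bcl7a bcl7b brm-1, against 176, 201 and 176.5 in brm-1, and rose by 1.05 ± 0.24 (limma adjusted p = 0.00169). Between brm-1 and WT (507, 545 and 431) it fell by 1.41 (limma adjusted p = 4.17e-05). In these comparisons TCP4 and ARR16 had opposite signs, and in others they did not. In bcl7a bcl7b brm-3 against brm-3 TCP4 fell by 1.13 (limma adjusted p = 0.00144) and ARR16 gave -0.19, and in bcl7a bcl7b against WT TCP4 gave 0.50 (limma adjusted p = 0.184) and ARR16 rose by 2.46. Over the 23 samples the correlation of TCP4 with ARR16 was -0.48, with ARR8 -0.82 and with ARR9 -0.76 (Pearson r), and over the 9 samples of bcl7b, bcl7a and WT 0.20, -0.43 and 0.06. Across all 23 samples the gene whose log2 level ran most like that of ARR16 was AT4G31050 (Pearson r = 0.88 over samples), with r = 0.93 over the 14 samples of the other set and 0.43 over the 9 of bcl7b, bcl7a and WT. AT5G56544 and TAS1A, a small RNA precursor, followed at 0.87 each. Among the members, ARR8 and ARR9 ran most alike (r = 0.95 over 23 samples, 0.66 over the 9 and 0.95 over the 14), and they share sequence. ARR5 and ARR6 followed at 0.85. These coefficients describe samples that share genotypes and library sets, and they carry no test.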

How the data were processed

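RNA was extracted with TRIzol from whole 14-day-old seedlings, and per the study's methods 3 biological replicates were sequenced separately. The authors quantified the reads with Salmon (1.5.1) on the AtRTD2 transcriptome and deposited counts normalized with DESeq2 size factors (version given as 3.10 in the submitters' notes), with gene-level TPM values named as the input in the methods. These deposited values are a depth-scaled signal, from which whole reads could not be recovered. Library depth was estimated at 19.7 to 28.3 M fragments from the smallest steps.

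Here log2(normalized count + 1) was tested with limma 3.58.1 (R 4.3.3, data.table version 1.17.8, moderated test with trend, Benjamini-Hochberg over 21596 genes), keeping genes that reached 10 in 3 or more libraries, with all 8 genotypes in 1 fit over 23 samples. Fold changes are on that scale and understate changes of low genes. Calls needed an adjusted p under 0.05 and a log2 change beyond 0.6. Fits were tested on simulated data. All 10 members and the listed pathway genes are given by name. Members and lists were chosen with earlier results of these data known. Alternatives were a pseudocount of 0.1 or 5, no filter, a mean of at least 50, quantile normalization, the same total, only the genotypes compared, libraries as deposited, a replicate block, and leaving out each library. Sequences and positions are from RefSeq (TAIR10.1).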

Additional observations from a re-analysis of the deposited data

Results flagged for a closer look

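The change brought by bcl7a bcl7b differed by test between plants without and with BRM for 5 members with a fold. On the log2 scale the difference, change in brm-1 plants minus change in BRM plants, was -7.53 for ARR16, -4.85 for ARR7, -2.41 for ARR9, -2.02 for ARR8 and -1.30 for ARR5 (limma interaction term). The change that entered it was for ARR16 -5.07 without BRM and 2.46 with BRM, and for ARR7 -2.10 and 2.75. ARR16 also differed between the double mutant and the sum of its single mutants, by 4.77 on the log2 scale. These terms set libraries of both library sets against each other.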

How the results depend on the processing

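The replicate numbers paired the samples weakly if at all. Of 84 same-numbered pairs of libraries 1 correlated over 0.1 in their deviations (median 0.00466), and of 168 pairs with different numbers 1 did (median -0.00597). With 3 numbers to match, 13 of 24 libraries correlated best with their own number, and a weak pairing was not tested. The replicate block was fitted with the libraries as deposited. It gave 4 calls against additivity in place of 2, as did the libraries as deposited without the block, and it ended the call on ARR6 in bcl7b (limma adjusted p = 0.057). Fitting only the genotypes compared gave 0 calls in bcl7a, 0 in bcl7b (against 3), 1 in bcl7a bcl7b (against 4), 3 in bcl7a bcl7b brm-1 against WT (against 5) and 0 for additivity. For bcl7a (1 call), a mean of at least 50 and quantile normalization gave 0 and the same total 2, which gave 8 in bcl7a bcl7b. Over all genes brm-1 had 6246 higher and 4139 lower, 11174 and 1542 at the same total, and 4803 and 4919 with quantile normalization.

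Leaving out 1 library gave 0 to 2 calls in bcl7a, 2 to 3 in bcl7b, 2 to 5 in bcl7a bcl7b, 5 to 6 in brm-3, 6 to 7 in brm-1, 5 to 6 in bcl7a bcl7b brm-3 and 4 to 6 in bcl7a bcl7b brm-1 against WT. It gave 0 to 1 in brm-1 against brm-3, 0 to 2 and 5 to 7 in bcl7a bcl7b brm-3 and bcl7a bcl7b brm-1 against their brm parents, 0 to 4 for additivity and 5 to 8 for the interaction. Without bcl7a bcl7b replicate 2 that group is 1 sample, assumed to vary like the others. A single fragment is worth 0.646 to 2.08 normalized counts, so ARR3, ARR15 and ARR17 rest on few fragments in many libraries, which limits what could be detected for them.

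Members not called changed sign. Against WT, ARR3 gave -0.11 and -0.87 in bcl7a and -0.053 and -1.16 in bcl7a bcl7b (pseudocount 5 and quantile), and -0.02, -0.008 and -1.46 in brm-3, brm-1 and bcl7a bcl7b brm-3 (quantile). ARR9 in bcl7b gave 0.025 (quantile) and 0.25 (same total), and ARR8 in bcl7a bcl7b brm-1 -0.084 (quantile). At the same total ARR5 gave 0.70 in brm-3 and 0.17 in brm-1, ARR6 0.39 in brm-1 and 0.90 in bcl7a bcl7b brm-3, and ARR3 0.21 in bcl7a bcl7b brm-1. ARR4 in brm-1 against brm-3 gave -0.042 (quantile) and -0.051 (same total). With 1 library left out, the ranges that changed sign were in bcl7a against WT ARR3 (-1.35 to 1.06), ARR8 (-0.30 to 0.022), ARR9 (-0.43 to 0.061), ARR16 (-1.56 to 0.27), in bcl7b against WT ARR3 (-0.47 to 1.95), ARR9 (-0.32 to 0.24), in bcl7a bcl7b against WT ARR3 (-1.31 to 1.2), ARR5 (-0.098 to 0.45). They were in brm-3 against WT ARR3 (-0.29 to 2.12), ARR5 (-0.51 to 0.046), in brm-1 against WT ARR3 (-0.12 to 2.30), in bcl7a bcl7b brm-3 against WT ARR3 (-1.30 to 1.17), ARR5 (-0.10 to 0.31), in bcl7a bcl7b brm-1 against WT ARR3 (-2.10 to 0.32), ARR8 (-0.17 to 0.12). They were also in brm-1 against brm-3 ARR3 (-0.004 to 0.36), ARR4 (-0.18 to 0.14), in bcl7a bcl7b brm-3 against brm-3 ARR4 (-0.13 to 0.19), ARR15 (-1.10 to 0.057), ARR16 (-0.605 to 0.14), in bcl7a bcl7b brm-1 against brm-1 ARR4 (-0.30 to 0.15), ARR15 (-0.84 to 0.12), for additivity ARR3 (-1.90 to 0.51).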
